A study of Mus musculus with 2 samples.

Results

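The genes described here are 30 DNA repair and damage response genes, chosen by name because streptozotocin (STZ), the agent used to induce diabetes, alkylates DNA. Their probes were taken by matching the transcript identifier of each non-control probe on the arrays to a reference table of gene names. No measured value was used in that step, but the genes and limits were chosen with earlier results of these data known. All 30 genes were found, on 34 probes and 52 spots, among the 21360 genes that the table named. LSK cells, the bone marrow fraction that lacks mature lineage markers and carries Sca-1 and c-kit and in which the blood stem cells are found, were measured on 1 Agilent array from nondiabetic mice and 1 array from STZ-induced diabetic mice, each labelled as a pool of 3 mice. Mice of both groups were C57BL/6J and are labelled female, whereas the paper describes male mice. In the paper's methods diabetes was induced with STZ through the tail vein and control mice received citrate buffer. The age of these mice and the time between STZ and cell sorting are not given in the sources used here for the arrays. RNA input was 8.3 ng for each array, and it was amplified before labelling. With 1 array per condition there is no replicate check, no test was made, and differences are described by their size.

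STZ carries a nitrosourea group that methylates DNA bases, and it is best known as a toxin of pancreatic beta cells, which take it up through a glucose transporter. Cells remove such lesions in layers. A methyl group can be taken off the base directly, a damaged base can be cut out and the gap refilled (base excision repair), and lesions that reach replication give mispairs and broken strands, which call on mismatch repair, checkpoint kinases, homologous recombination, the Fanconi pathway and end joining. In blood stem cells these pathways are known for limiting mutation and for sustaining the cells through replication.

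By the probe that stands for each gene, 4 of the 30 genes exceeded 2-fold upward in diabetic cells (Brca2, Fancd2, Neil1 and Apex1) and 6 exceeded it downward (Prkdc, Alkbh2, Ercc1, Brca1, Neil3 and Xrcc5). The share that was higher, 13.3%, lay near the 11.0% of all 15192 named genes with a value. The share that was lower was 20%, against 10.1% of all genes. With so few genes and no test, that difference is not read as a result about repair genes. The median log2 ratio of diabetic over nondiabetic cells was -0.13 over the 30 genes and 0.02 over all genes. The 30 genes therefore did not move together: 13 had a ratio above 0 and 17 a ratio below 0. Where a gene had several probes, the probe with the highest mean signal over both arrays stands for it here, and every other probe is given below.

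Intensities are given as the scanner software reported them, in arbitrary units after background subtraction. Log2 ratios were taken after each array had been scaled to its 75th percentile, a step that subtracts 0.12 from every log2 ratio. The software's own flag marks a spot as well above background. Of the 34 probes, 30 carried it on both arrays and 4 on 1 array, and for those 4 the ratio is only a bound. The software's error estimates put the error of a log2 ratio at 0.20 or more. By that estimate, 7 of the 27 genes measured on both arrays had a ratio smaller than its error and 17 had a ratio of more than 2 times its error. The same counts were not made over all genes, so these are not read as a result about repair genes. The error estimates, and the spread between spots, leave out differences between mice, sorts and amplifications. An array of a cell population cannot separate fewer cells of a type from less RNA per cell.

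**Figure D1:**
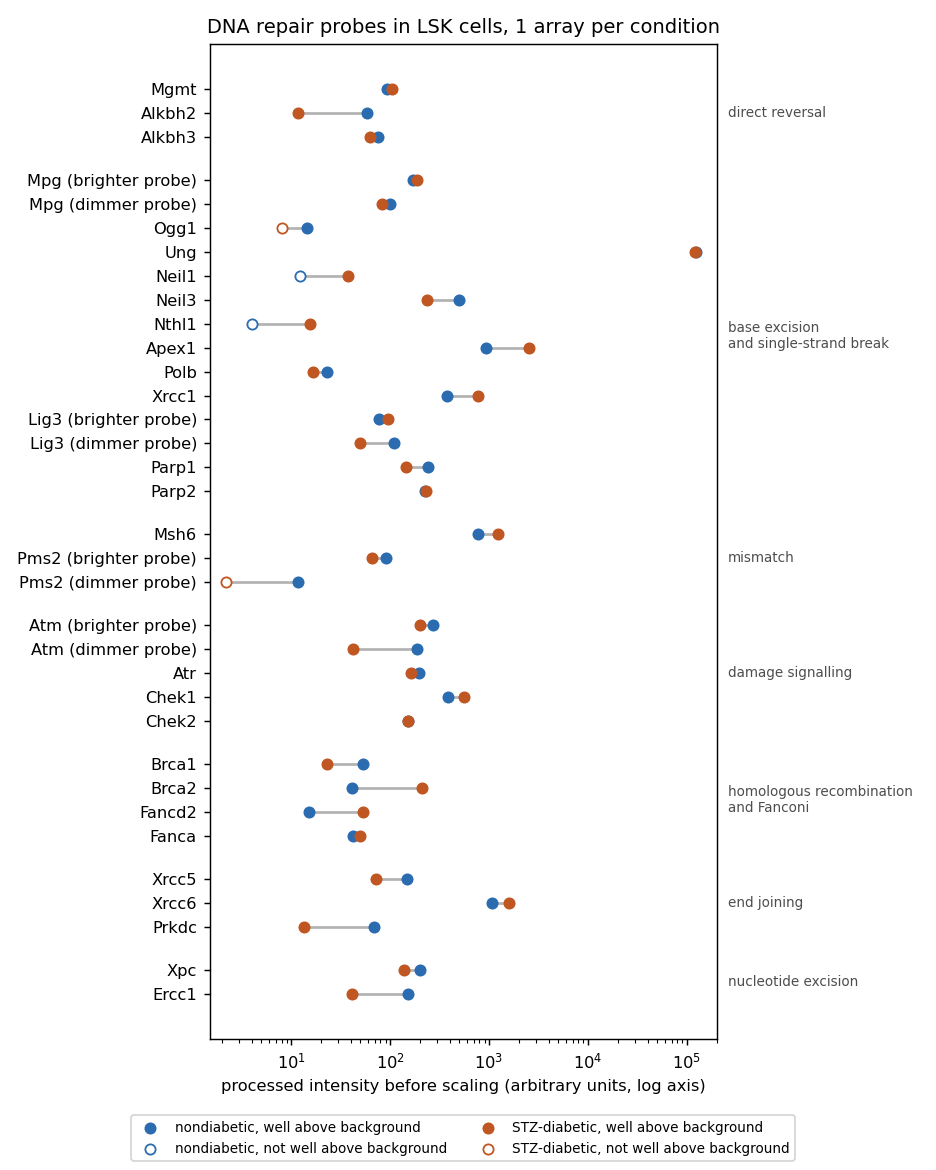
Processed intensity of each DNA repair probe before scaling, on a log axis, in nondiabetic (blue) and STZ-diabetic (orange) LSK cells, with open circles where a probe was not well above background. The widest gaps are those of Prkdc, Alkbh2, Brca2 and the dimmer probe of Pms2, whose diabetic value of 2.19 was not well above background.

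Direct reversal is carried out by Mgmt, which takes the alkyl group from guanine onto itself, and by the dioxygenases Alkbh2 and Alkbh3, which oxidize methyl groups off the bases. Mgmt read 93.2 in the nondiabetic pool and 104 in the diabetic one, for a log2 ratio of 0.05 with a scanner error of 0.21. Alkbh3 went from 75.7 to 63.1, a log2 ratio of -0.38. Alkbh2 was the exception among these enzymes. Its probe had 58.3 in nondiabetic and 11.7 in diabetic cells, where it was still flagged as well above background, and the log2 ratio was -2.44 with an error of 0.33, or 5.41-fold lower. Its diabetic intensity lay close to the lowest intensity flagged as well above background on that array, 10.1.

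Alkbh2 lies beside Ung, the glycosylase that removes uracil from DNA, in the opposite orientation. In the RefSeq table of assembly GRCm38.p6 the promoter windows of these genes, each a stretch around the start of the gene, are 1716 bases apart with 0 other windows of the table starting between them. Ung had 123278 in nondiabetic and 120680.2 in diabetic cells, a log2 ratio of -0.15 that is smaller than its error of 0.20. Its signal was above the array's 99th percentile (12110 and 12957) and was not flagged as saturated. Because probes differ in how they hybridize, that brightness is not read as a level of the transcript. The neighbours thus had ratios of -2.44 and -0.15. Their windows are printed 5′ to 3′ on the strand of each gene, at chr5:114128169-114128468 (minus strand) for Alkbh2 and chr5:114130185-114130484 (plus strand) for Ung, and with them those of Apex1 at chr14:50924699-50924998 (plus strand) and Brca2 at chr5:150522371-150522670 (plus strand), which are described below as genes that were higher. Capitals mark every match, on either strand, to 4 motifs: the GC box GGGCGG, the box named for its letters CCAAT, the TATA box TATAAA, and the E2F words TTTCCCGC, TTTGGCGC, TTTGCCGC and TTTCGCGC.
Alkbh2: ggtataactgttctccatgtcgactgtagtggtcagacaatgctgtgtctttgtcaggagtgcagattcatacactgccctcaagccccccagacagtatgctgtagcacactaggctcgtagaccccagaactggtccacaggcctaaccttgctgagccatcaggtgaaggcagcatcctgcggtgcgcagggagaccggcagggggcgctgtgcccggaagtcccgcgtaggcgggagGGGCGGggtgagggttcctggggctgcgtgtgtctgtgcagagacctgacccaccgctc
Ung: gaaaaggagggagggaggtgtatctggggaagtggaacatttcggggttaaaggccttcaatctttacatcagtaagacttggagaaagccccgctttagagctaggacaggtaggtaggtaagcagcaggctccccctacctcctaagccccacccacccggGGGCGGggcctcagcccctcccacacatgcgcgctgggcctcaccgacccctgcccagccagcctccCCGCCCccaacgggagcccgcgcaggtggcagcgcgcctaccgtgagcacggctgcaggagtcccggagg
Apex1: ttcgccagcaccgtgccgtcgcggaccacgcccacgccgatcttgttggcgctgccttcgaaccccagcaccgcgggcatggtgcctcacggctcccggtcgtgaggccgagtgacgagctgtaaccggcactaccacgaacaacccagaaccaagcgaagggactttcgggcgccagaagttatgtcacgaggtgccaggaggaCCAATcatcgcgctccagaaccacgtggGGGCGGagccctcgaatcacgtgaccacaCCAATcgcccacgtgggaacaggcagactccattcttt
Brca2: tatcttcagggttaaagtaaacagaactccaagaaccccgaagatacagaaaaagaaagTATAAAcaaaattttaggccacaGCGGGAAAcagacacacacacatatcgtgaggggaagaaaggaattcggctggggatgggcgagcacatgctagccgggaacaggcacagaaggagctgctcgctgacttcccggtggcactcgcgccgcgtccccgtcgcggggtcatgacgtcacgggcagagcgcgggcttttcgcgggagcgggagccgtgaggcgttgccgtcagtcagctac

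RefSeq promoter windows were at hand for 26 of the 30 genes. The GC box was found in 18 of them (69.2%) and in 38.2% of the 27025 genes with a window, and the CCAAT box in 13 (50%) and in 41.1%. The TATA box occurred in 3, and in 15.7% of all genes with a window. An E2F word occurred in 5 genes (19.2%) and in 2.6% of all genes with a window. Those 5 genes were Brca2, Chek2, Msh6, Nthl1 and Xrcc6, and Brca2 alone among them passed 2-fold. Windows of these genes had a median GC content of 60.5%, against 52.7% over all genes. A match to such letters is a description of the window, not of a bound factor.

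Base excision and single-strand break repair held 12 of the genes. The first step, cutting out a damaged base, is done by glycosylases, of which Mpg is the one for alkylated purines. The brighter probe of Mpg went from 169.6 in nondiabetic to 189 in diabetic cells, a log2 ratio of 0.04, and its dimmer probe from 98.98 to 83.0, a log2 ratio of -0.37. Neither Mpg probe came near 2-fold. The glycosylases for oxidized bases, in contrast, sat at low signal apart from Neil3. Neil3 had 492 and 234, a log2 ratio of -1.19 with an error of 0.20, or 2.28-fold lower in diabetic cells.

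Neil1 was not well above background in nondiabetic cells (12.3) and had 38.0 in diabetic cells, which makes it at least 2.84-fold higher. Nthl1 likewise carried the flag in diabetic cells alone, with 4.04 and 15.7, and was at least 1.41-fold higher. Ogg1, the glycosylase for oxidized guanine, carried it in nondiabetic cells alone, with 14.6 and 8.16, and was at least 1.58-fold lower. All 3 bounds rest on a single spot near the limit of detection. On the log2 scale they were 1.51 for Neil1, 0.50 for Nthl1 and -0.66 for Ogg1. The scanner errors were 0.37, 0.99 and 0.54 in the same order, and the bounds do not take them into account.

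After the glycosylase, Apex1 cuts the strand at the site that lost its base. Apex1 had 926 in nondiabetic and 2529.8 in diabetic cells, a log2 ratio of 1.33 with an error of 0.20, or 2.52-fold higher. Its signal was far above background on both arrays. The gap is then filled by the polymerase Polb, which had 23.0 and 16.5, a log2 ratio of -0.59 with an error of 0.33.

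The scaffold Xrcc1, which holds the gap-filling enzymes together, had 377 and 782, a log2 ratio of 0.94, just short of 2-fold. Its partner, the ligase Lig3, gave no single answer. The brighter Lig3 probe went from 76.8 to 94.7, a log2 ratio of 0.18, while the dimmer one went from 109.6 to 49.9, a log2 ratio of -1.25. The strand break sensor Parp1 had 239.5 and 145, a log2 ratio of -0.84, whereas Parp2 had 224 and 232, a log2 ratio of -0.07. Of the 12 genes of base excision, Neil1 and Apex1 thus passed 2-fold upward and Neil3 downward, and the median was -0.02. Over all genes the shares were 11.0% upward and 10.1% downward, and these few genes are not read as a result about the pathway.

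**Figure D2:**
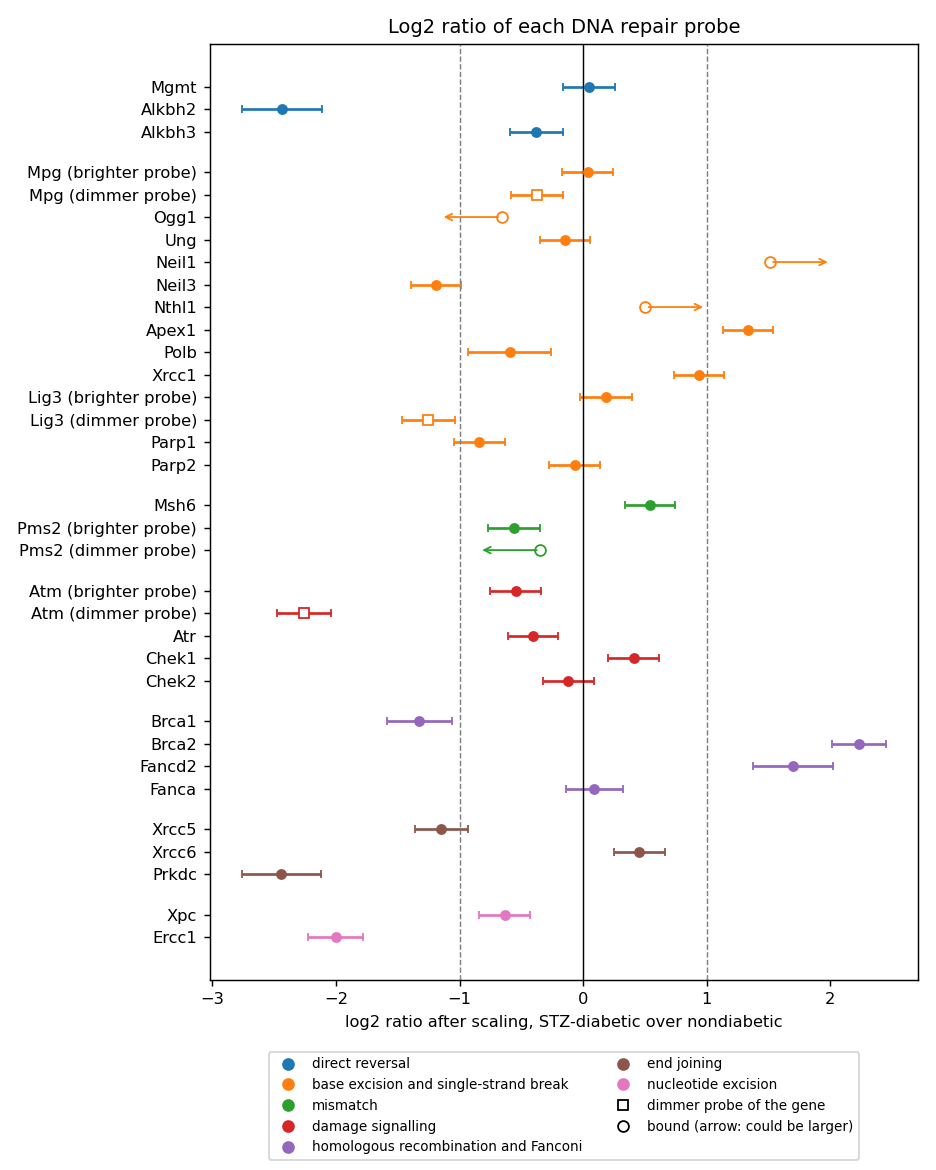
Log2 ratio of STZ-diabetic over nondiabetic LSK cells after scaling for each DNA repair probe, coloured by role. Bars give the scanner software's error estimate, dashed lines mark 2-fold, and arrows mark bounds. Genes of 1 role lie on both sides of 0 in every role except nucleotide excision, where both genes were lower.

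Mismatch repair recognizes the mispairs that an alkylated guanine makes at replication. Msh6, a subunit of the mispair sensor, had 777 and 1224, a log2 ratio of 0.54. For Pms2, a subunit of the complex that follows, the brighter probe went from 90.4 to 66.4, a log2 ratio of -0.56. The dimmer probe went from 11.8 to a value not well above background, at least 1.27-fold lower. That is a log2 bound of -0.35, smaller than its scanner error of 1.48. Neither gene passed 2-fold.

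Damage signalling starts with the kinases Atm, which answers to broken strands, and Atr, which answers to stalled replication forks, and passes to Chek2 and Chek1. Atr had 198 and 162, a log2 ratio of -0.41. Chek1 had 388 and 558, a log2 ratio of 0.41. Chek2, at 152 and 151, was level, with a log2 ratio of -0.12 and an error of 0.21. The kinases of the fork, Atr and Chek1, thus had ratios of opposite sign, and none of the 4 passed 2-fold by its brighter probe.

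Atm was measured by probes that disagreed. Its brighter probe was printed once and had 270.3 in nondiabetic and 200.6 in diabetic cells, a log2 ratio of -0.55. Its other probe was printed 10 times, and 4 of those spots were left out because the software had marked them as outliers on either array. Over the 6 spots kept, the intensity ran from 174 over a median of 191 to 197 in nondiabetic cells and from 38.9 over 42.9 to 45.7 in diabetic cells. The spots of the arrays do not overlap, and the log2 ratio was -2.26 with an SD of 0.13 between spots, or 4.79-fold lower. With all 10 spots the mean was -2.23. The spots repeat 1 array per condition, and how many other replicated probes separate in this way was not counted. Both probes were lower in diabetic cells, yet they differed by far more than the spread between spots of 1 probe.

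Prkdc, the catalytic subunit of the DNA-dependent protein kinase, was the other gene printed 10 times, and 1 spot was left out as an outlier. Over the 9 kept, the intensity ran from 56.9 over a median of 68.1 to 81.0 in nondiabetic cells and from 9.99 over 14.8 to 16.3 in diabetic cells. The values do not overlap, again as spots of 1 array per condition. Its log2 ratio was -2.44 with an SD of 0.18 between spots, or 5.43-fold lower, which with Alkbh2 was the largest difference among the 30 genes, and 8 of the 9 spots were still flagged as well above background in diabetic cells. The spot left out had 31.0 in nondiabetic cells, and with it the mean log2 ratio was -2.31.

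**Figure D3:**
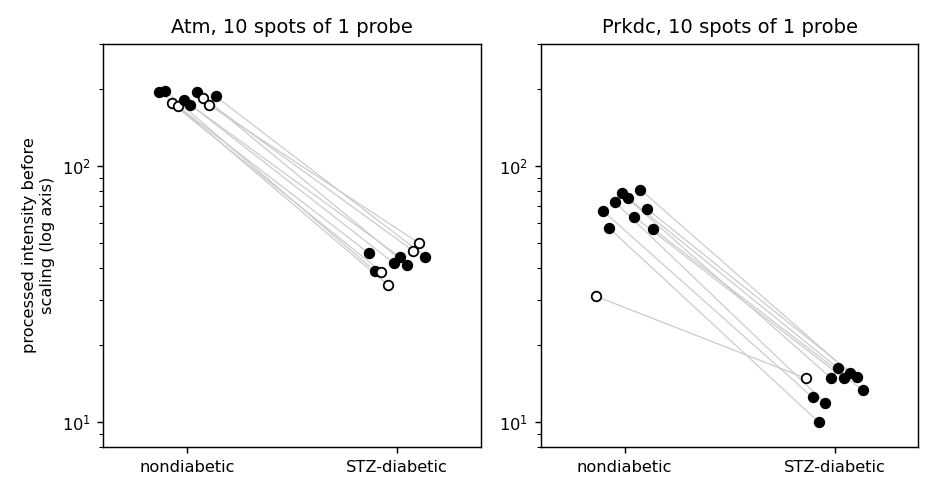
Processed intensity before scaling, on a log axis, of each of the 10 spots of the replicated probes of Atm and Prkdc, joined between the nondiabetic and the STZ-diabetic array. Open circles are spots left out as outliers. On both probes every diabetic spot lies below every nondiabetic spot, the spots left out included.

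End joining ties broken ends together, with the Ku subunits Xrcc5 and Xrcc6 holding the ends and Prkdc bound to them. Xrcc5 had 148 and 72.4, a log2 ratio of -1.15 with an error of 0.21. Xrcc6 had 1060.3 and 1576, a log2 ratio of 0.45. The subunits of a single heterodimer were thus on opposite sides of 0. Prkdc and Xrcc5, 2 of the 3 genes, were past 2-fold downward, beside 10.1% of all genes. A count over so few genes is not read as a result about the pathway.

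Homologous recombination and the Fanconi pathway held the largest differences upward. Brca2, which loads the recombinase onto single strands, had 41.7 in nondiabetic and 213 in diabetic cells, a log2 ratio of 2.23 with an error of 0.22, or 4.70-fold higher. Fancd2, the Fanconi protein that is ubiquitinated at crosslinks, had 15.3 and 53.7, a log2 ratio of 1.69 with an error of 0.32. Brca1, which acts in end resection and in loading, went the other way, with 53.4 and 23.1, a log2 ratio of -1.33. Fanca, of the core complex, had 42.5 and 49.1, a log2 ratio of 0.09.

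Nucleotide excision removes bulky lesions. Ercc1, a subunit of the nuclease that makes the cut 5′ of the lesion, had 152 and 41.2, a log2 ratio of -2.0 with an error of 0.22, or 4.0-fold lower. Xpc, the sensor of distortion, had 199 and 139, a log2 ratio of -0.63. No second probe was available for either gene, nor for any of the 10 genes past 2-fold.

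Several of these products work only with a partner, so the ratios of partners were set side by side for 9 pairs. The pairs are textbook complexes and were put together after the values had been seen. Most of them include a gene already past 2-fold, so how many pairs lie apart is not read as a result. Xrcc6 enters both the Ku and the DNA-PK pair. Ercc1 differed from its nuclease partner Ercc4, at 0.69, by 2.69 with an error of 0.31. Fancd2 differed by 1.72 from Fanci, whose ratio of -0.03 is level within its error. Brca2 and Palb2, at 0.83, were both higher and differed by 1.4, although a second Palb2 probe was not well above background in diabetic cells and had a bound of -1.34. Xrcc1 and Lig3 differed by 0.75, and Atr and its partner Atrip by 0.56, both under 2-fold by the brighter probes, but the other Lig3 probe, at -1.25, lies more than 2-fold from Xrcc1 and on the other side of 0. Xpc and Rad23b, at 0.73, differed by 1.36.

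Brca1 and Bard1 gave the widest gap, 4.38, yet it depends on the Bard1 probe. The brightest of 3 Bard1 probes went from 31.0 to 280.2, a log2 ratio of 3.06. A second had 93.6 and 91.5, a log2 ratio of -0.15, and the third had 56.1 against a diabetic value below the flag, a bound of -2.60 on the log2 scale. Of these 3 probes, then, 1 was higher, 1 was level and 1 was lower.

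**Figure D4:**
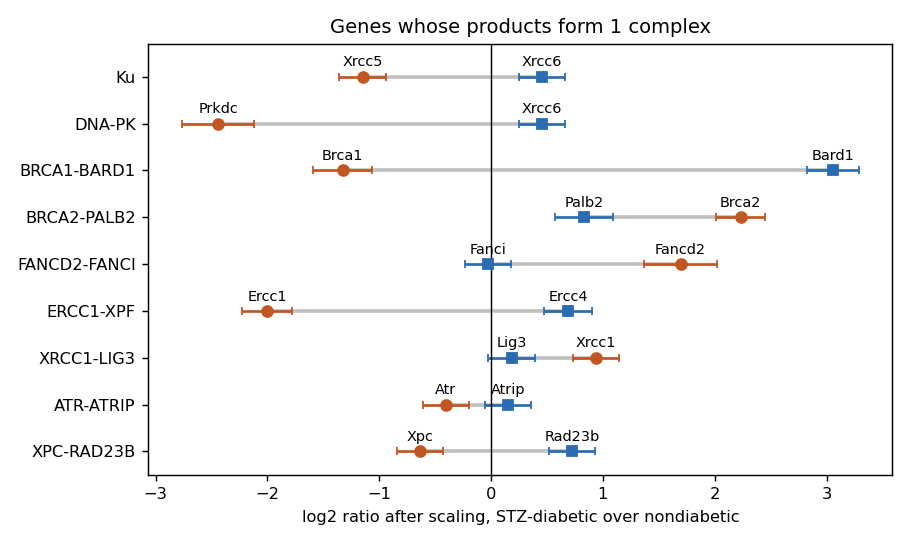
Log2 ratio after scaling of STZ-diabetic over nondiabetic LSK cells for genes whose products form 1 complex, with the first gene of each pair as a circle and its partner as a square. Bars give the scanner software's error estimate. The gap is widest for Brca1 and Bard1, by the brightest Bard1 probe, and narrowest for Atr and Atrip.

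A wider list of 84 repair genes was set beside the 30, of which 83 had a probe and 81 a ratio or bound. Past 2-fold were 16 upward (19.8%) and 10 downward (12.3%) in diabetic cells, and the median log2 ratio was 0.25. Against the shares of all genes, 11.0% and 10.1%, the wider list held more genes on the higher side, while the 30 genes held more on the lower side. Neither difference was tested, and neither is read as a result about repair genes. Under the normexp alternative described below, 1 of the 30 genes was lower, beside 497 of all genes. On the higher side it left 10 genes of the wider list, beside 597 of all genes. With both lists joined, 20 of 111 genes were higher, 16 were lower, and the median was 0.16.

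Of the 6 genes listed for translesion synthesis, the copying past damaged bases, 3 passed 2-fold upward and 1 downward. The shares over all genes were 11.0% and 10.1%. Counts over so few genes are not read as a result about the pathway. Rev3l, the catalytic subunit of polymerase zeta, had 60.2 and 217, a log2 ratio of 1.74. Its partner Rev1 had 14.4 and 43.7, a log2 ratio of 1.48. Polk was lower, from 2357 to 894, a log2 ratio of -1.52, but its second probe, from 13.2 to 23.7, had a log2 ratio of 0.73.

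Among further genes of base excision, 3 of the 13 with a value passed 2-fold upward and 0 downward, beside 11.0% and 10.1% of all genes. With so few genes, these counts are not read as a result about the pathway. Tdp1, which frees ends blocked by a trapped topoisomerase, had 76.5 and 349, a log2 ratio of 2.07. Mutyh, the glycosylase for adenine paired with oxidized guanine, had 37.2 and 109, a log2 ratio of 1.44. The uracil glycosylase Smug1 had a log2 ratio of 1.28. For mismatch repair, Msh3 was higher on each of its 3 probes, at 1.53, 0.47 and 2.07, and Pms1 was at least 2.87-fold lower.

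In end joining, all 4 probes of Dclre1c, the nuclease Artemis, were higher in diabetic cells, with log2 ratios of 2.46, 2.17, 1.75 and 0.82. Lig4, the ligase of the same pathway, was 5.10-fold lower, from 97.6 to 20.8. These genes sit beside Prkdc and Xrcc5, so the pathway held large differences in both directions. In homologous recombination Rad54l had 366 and 123, a log2 ratio of -1.69, and Rad51ap1 was at least 3.06-fold higher. Rad51d had a log2 ratio of -1.39 on its brighter probe and 0.69 on the other.

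Fancc was 5.64-fold higher in the Fanconi pathway, from 19.1 to 117. Fance had a log2 ratio of 2.16 on its brighter probe, from 158 to 767, and -1.56 on its dimmer one. In nucleotide excision Ercc2, a helicase, was 3.38-fold lower and the nuclease Ercc5 was 3.16-fold higher. Ercc8 had a log2 ratio of 2.19 on its brighter probe and -1.50 on the other. Mdc1, a damage signalling adaptor, had 212 and 89.2, a log2 ratio of -1.37.

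**Figure D5:**
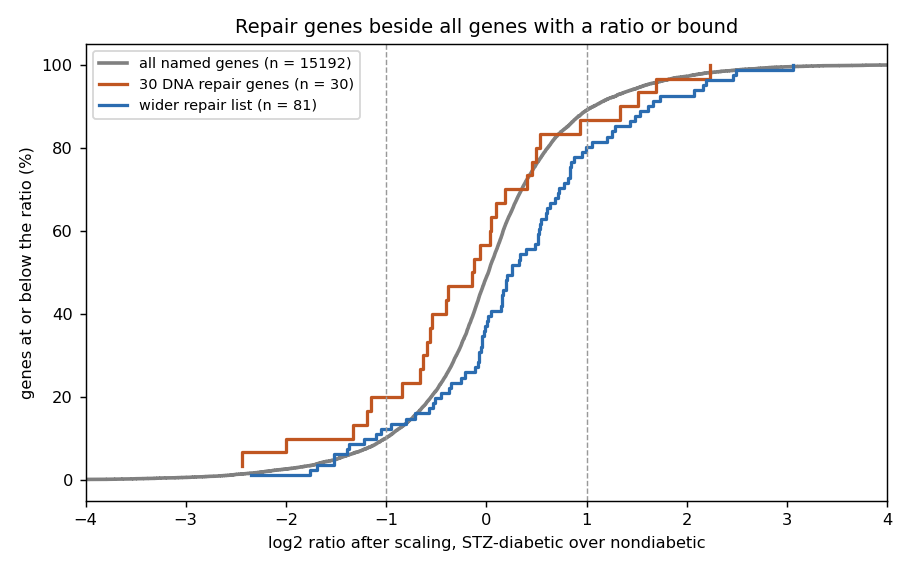
Share of genes at or below each log2 ratio of STZ-diabetic over nondiabetic LSK cells, in percent, for the 30 DNA repair genes, the 81 genes of the wider repair list with a value and all 15192 named genes with a value. Dashed lines mark 2-fold. To the left of 0 the curve of the 30 genes runs above that of all genes from its lowest gene on, and between 0 and 2-fold higher the curve of the wider list runs below it.

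Probes of 1 gene differed more than spots of 1 probe did. Spot-to-spot SDs of log2 ratios had a median of 0.13 over 237 probes printed at least 5 times. Brighter and next probes of 1 gene differed by a median of 0.56 over 3245 genes with at least 2 probes measured on both arrays, and by more than 2-fold in 30.7% of them. In the 2 repair lists together, the probes differed by more than 2-fold in 13 of 22 such genes and had opposite signs in 11. The share with opposite signs over all 3245 genes was 44.3%. Among the 30 genes, 26 had a single probe, so for most of them this disagreement could not be seen.

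Markers of the sorted cells were present on both arrays. Of 10 genes of the LSK gate and early progenitors, 9 were well above background in nondiabetic and 10 in diabetic cells. Of the gate genes, Kit had a log2 ratio of -0.09 and Ly6a, which encodes Sca-1, 0.44. The median of this list was 0.25, and 1 gene passed 2-fold in each direction. Mecom was lower, from 182 to 86.1, a log2 ratio of -1.20. Slamf1 went from 5.29, not well above background, to 28.7, a bound of 1.37. Many repair genes are known to be made mostly in dividing cells, and the list of 18 cycling genes had a median log2 ratio of 0.10 and ranged from -0.61 to 1.94, and 1 of them, Ccnb1, passed 2-fold. Its summed intensity was 36929 in nondiabetic and 41549 in diabetic cells. The granulocyte and monocyte list summed to 9267 and 7528, with 8 and 7 of 9 genes above background. Most of that sum was Csf1r and Mpo, which progenitors also make. S100a8, of mature granulocytes, had 52.2 and 20.4, whereas Camp, of the same list, went the other way, from 111 to 178. The median log2 ratio of that list was -0.45, with 0 genes past 2-fold upward and 1 downward. Erythroid genes summed to 2865 and 6070, with 7 of 8 on both. Most of that difference was Hba-a1, which went from 1984 to 4967, and the list's median log2 ratio was 0.14. T and NK cell genes summed to 4547 and 3825, with 4 of 6 on each array, of which Cd3g was above background in nondiabetic cells alone and Klrb1c in diabetic cells alone. B cell genes summed to 752 and 1112 with 5 of 7 on both, megakaryocyte genes to 418 and 703 with 4 of 5 on both, and stromal and endothelial genes to 205 and 974 with Pecam1 alone of 6 on both. Most of the last difference was Pecam1, which went from 162 to 936, while Col1a1, Col3a1 and Cdh5 were not well above background on either array. That sum rests mostly on Pecam1 and is not read as a sign of stromal or endothelial cells. Whether cells of any of these types have a part in the ratios of the repair genes was not tested.

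The counts were smaller under the normexp alternative, which differs in its input (the median spot intensity), its background model and an added offset, and the parts of these were not separated. Under it, 3 of the 10 genes stayed past 2-fold in the same direction. These were Apex1, Brca2 and Ercc1, with log2 ratios of 1.24, 1.32 and -1.02, whereas Alkbh2, Prkdc and Fancd2 went to -0.83, -0.93 and 0.35.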

How the data were processed

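LSK cells of nondiabetic and STZ-diabetic mice were measured on 1 Agilent 1-colour array each, labelled by the submitters as nondiabetic and STZ-DM. The authors deposited intensity values from Agilent Feature Extraction 11.5.1.1, with background subtracted within the array and no normalization between arrays. The array's grid refers to build mm9, and no coordinates were used for the measurements. The authors also deposited a table of intensities, each column of which was the scanner intensity times a constant (log2 factors of 3.48 and 3.35). The intensity was taken to log2 and the 75th percentile of each array over 59305 non-control spots (168 and 182) was subtracted. Any spot that the software marked as non-uniform or as a population outlier on 1 array was dropped from the pair (314 spots), and spots of a probe were averaged. The background flag of a probe is that of the majority of its spots. A probe flagged on 1 array has a bound against the higher of its own dim value and the lowest flagged intensity (10.2 and 10.1), and none where the bound would reverse the direction. Probes were named through their transcript identifiers and the RefSeq table of GRCm38.p6, which named 31845 spots.

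No test was made, with 1 array per condition. The number of arrays limits the precision. The scanner's error estimate and the SD between spots are given as errors of a single array. The named genes are the 30 members with every probe and the 20 genes of the wider list with the largest differences past 2-fold, except that further genes appear as partners of members or in the marker lists. The members, lists and limits were chosen with earlier results of these data known. Both arrays lie on 1 slide and were read in 1 scan, per the file headers. Alternatives were loess, quantile normalization, centring of the log2 ratios on their median, normexp with an offset of 50, dim probes unfiltered, a restriction to probes flagged on both arrays, the mean over probes, the next brightest probe, the authors' table and outlier spots kept. Normexp used the median spot intensity. The steps were tested on simulated data. limma 3.58.1 was run in R 4.3.3. All else was run in Python 3.11.15 (scipy 1.17.1, numpy 2.4.6, pandas 2.3.3, matplotlib 3.10.9).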

Additional observations from a re-analysis of the deposited data

How the results depend on the processing

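Of 60 values of the 6 results on the repair lists under 10 alternatives, 54 stayed within 1.5 times the count, or within 0.13 (the spot SD) of the median. That tally includes the authors' table, which is the scanner intensity times a constant and could not move a value. Every count on the repair lists fell outside its limit under normexp. Under normexp, counts past 2-fold upward and downward were 2 and 1 in place of 4 and 6 among the 30 genes, 10 and 6 in place of 16 and 10 in the wider list, and 597 and 497 in place of 1667 and 1538 over all genes. Its offset shrinks small intensities' ratios by construction. The median of the 30 genes went from -0.13 to -0.27 with the mean over probes and to -0.36 with the next brightest probe, which touches the 4 genes with several probes. Atm then passed 2-fold, at -1.40 and -2.26, and Lig3 did so with the next brightest probe, at -1.25. Neil1 has no value when both arrays must carry the flag, and Nthl1 went to 1.84 with no filter on dim probes. The other 9 genes past 2-fold kept their direction and size class under each alternative but normexp, where of them Apex1, Brca2 and Ercc1 alone did. Several of these alternatives could not change the 9 genes. Each gene had a single probe flagged on both arrays, so the probe and flag settings left it as it was, as did the authors' table. Keeping outlier spots touched Prkdc alone among them. Of 297 values of single genes, 5 changed sign, in Mgmt, Mpg and Lig3, and none of these had passed 2-fold before. Signal limits Ogg1, Neil1 and Nthl1 most. Leaving out a replicate was not possible. No paired analysis was possible because nondiabetic and diabetic cells share no replicate number.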
